A study of Rattus norvegicus with 18 samples.

Results

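Rat hepatocytes exposed to 30 µM EMD for 24 h were compared with hepatocytes given vehicle for the same time. EMD is a synthetic compound that the study describes as an agonist of both PPARα and PPARγ. The comparison rests on 6 of the 18 arrays of the series, chosen by their titles: 3 arrays of cultures with 30 µM EMD at 24 h and 3 arrays of cultures with 0.1% DMSO (dimethyl sulfoxide, the vehicle) at 24 h. All of these were primary hepatocytes from the liver of Wistar rats, which had been left for 24 h to attach and were then kept in Dulbecco's modified Eagle's medium with gentamicin, insulin and hydrocortisone, so both groups received these hormones. The other 12 arrays held cultures with 100 µM EMD at 24 h and, at 72 h, cultures with both doses and with DMSO. They entered the common estimate of the spread, and 9 of them served in the comparisons of dose and of time. Neither the age nor the sex of the rats is stated in the labels or methods. The study's methods state that cells of each animal received every treatment, but the labels do not say which animal a replicate number stands for. Insofar as replicates shared an animal or a preparation, the p-values measure only the spread between these samples.

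PPARα is a nuclear receptor that senses fatty acids. It pairs with the retinoid X receptor (RXR), and the pair binds DNA at a direct repeat of the letters AGGTCA with a single base between the copies. In rodent liver PPARα is known for raising genes that bring fatty acids into the cell, couple them to coenzyme A, carry them into mitochondria and peroxisomes and oxidise them there, and for making peroxisomes multiply. PPARγ is the related receptor that drives fat cell formation and fat storage.

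Promoters of the measured genes were searched for this repeat. The RefSeq table of promoters (build GRCr8, from 250 bases before to 50 bases after each start) gave a promoter with 1 listed start for 147 of the 189 genes named by rule. The search took 2 copies of AGGTCA with any 1 base between them, on both strands, with up to 2 mismatches in the 12 fixed letters. Such a match was present in 30 of the 490 promoters of genes called higher (6.12%). For those higher by at least 2-fold it was present in 19 of 179 (10.6%). It was present in 5 of 300 promoters of genes called lower (1.67%) and in 277 of 10128 of genes not called (2.73%). Over all measured genes with a promoter it was present in 312 of 10918 (2.86%), against 891 of 24206 promoters in the whole table (3.68%). These sets were not matched for brightness on the arrays, and calls were rarer among dim probe sets. Of the named genes, 9 had a match. The 250 bases before the start are shown for 4 of them, whose mRNAs rose by 2.98 to 3.95 on the log2 scale: Fabp1 (chr4:104749090-104749339, plus strand), Acot4 (chr6:109399604-109399853, plus strand), Crat (chr3:34087100-34087349, minus strand) and Cyp8b1 (chr8:130457593-130457842, minus strand). The remaining matches were in Slc25a20, Cyp4f5, Por and Agpat3, with changes of 2.26, 1.12, 0.83 and 0.68, and in Kmo, which was called lower (-0.99). Each sequence shown is written 5′ to 3′ on the strand of the gene, and capitals mark the match, counted from the start site.
Fabp1, match from -77 to -65 on the opposite strand with 1 mismatch: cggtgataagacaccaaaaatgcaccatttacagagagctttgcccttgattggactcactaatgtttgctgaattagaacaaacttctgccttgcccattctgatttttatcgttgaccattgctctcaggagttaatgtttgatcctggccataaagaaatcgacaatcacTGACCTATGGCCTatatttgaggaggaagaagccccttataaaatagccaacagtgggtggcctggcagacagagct
Acot4, match from -13 to -1 on the opposite strand with 1 mismatch: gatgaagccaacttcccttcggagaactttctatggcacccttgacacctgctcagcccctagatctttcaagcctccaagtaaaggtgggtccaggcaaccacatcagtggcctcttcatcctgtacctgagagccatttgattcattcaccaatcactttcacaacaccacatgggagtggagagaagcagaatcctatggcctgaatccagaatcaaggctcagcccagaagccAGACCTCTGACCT
Crat, match from -223 to -211 with 2 mismatches: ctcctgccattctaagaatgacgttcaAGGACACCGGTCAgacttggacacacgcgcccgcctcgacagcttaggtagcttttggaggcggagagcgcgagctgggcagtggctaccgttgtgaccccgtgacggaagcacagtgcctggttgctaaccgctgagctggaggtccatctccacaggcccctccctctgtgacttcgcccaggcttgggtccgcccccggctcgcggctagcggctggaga
Cyp8b1, match from -87 to -75 with 2 mismatches: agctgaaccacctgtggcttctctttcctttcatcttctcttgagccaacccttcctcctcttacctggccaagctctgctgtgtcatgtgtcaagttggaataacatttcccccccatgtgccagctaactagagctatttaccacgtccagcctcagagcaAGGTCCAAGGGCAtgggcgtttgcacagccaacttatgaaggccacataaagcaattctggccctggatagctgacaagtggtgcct
A match describes letters in the window and no binding was measured here. Which receptor, if any, binds at these matches was not tested.

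Levels are given as log2 RMA values, the normalised brightness of a probe set, so that a difference of 1 is 2-fold. The arrays had values from 2.388 to 14.774 and medians from 5.05 to 5.11, and the lowest correlation between any pair of the 6 arrays was 0.980. Of 31042 probe sets, limma called 1664 (5.36%) at an adjusted p under 0.05, of which 1041 (3.35%) were higher and 623 (2.01%) lower with EMD. At least 2-fold differences were found for 367 higher (1.18%) and 74 lower probe sets (0.238%). The rises were larger than the falls: 118 rises and 4 falls exceeded 4-fold, and 18 rises and 0 falls exceeded 16-fold. The median change of probe sets called higher was 0.76 and that of probe sets called lower -0.58, while all probe sets together had a median of -0.03. Taken as genes, with the brightest probe set of each, 1027 of 14217 were called (7.22%), 621 higher (4.37%) and 406 lower (2.86%), and these percentages are the background for the counts in each gene group. The 3 EMD arrays lay above the 3 DMSO arrays without overlap for 10.3% of all genes and below them for 14.8%, so separate groups alone were common. Calls were rarer among dim probe sets. With probe sets split by level into 4 equal parts, 0.129% of the dimmest part and 8.78% of the brightest were called higher.

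**Figure D1:**
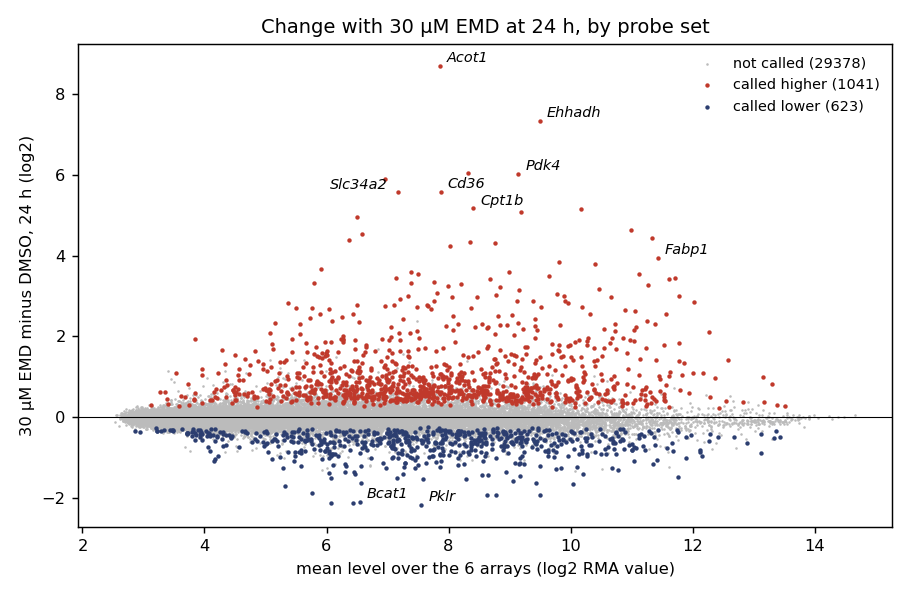
Each point is 1 probe set, with its mean log2 RMA value over the 6 arrays on the x axis and the log2 difference of 30 µM EMD minus DMSO at 24 h on the y axis. The 1041 probe sets called higher reach up to 8.70 and the 623 called lower reach down to -2.17.

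The largest rise was that of Acot1, a cytosolic enzyme that splits acyl-CoA into free fatty acid and coenzyme A. It stood at 12.03, 12.31 and 12.29 with EMD, against 3.57, 3.45 and 3.51 with DMSO, a difference of 8.70 ± 0.09 (SE; adjusted p = 2.2e-19). The DMSO values lay under the median of the arrays (5.08), where background can make up much of a value, so the size of such a rise is uncertain. Of the 1041 probe sets called higher, 131 started from below that median. Among the thioesterases 7 of 9 measured rose and 0 fell, with a median change of 2.29, against -0.04 over all genes. Acot4, Acot3 and Acot8 belong to the peroxisome and rose by 3.60 ± 0.15, 3.34 ± 0.11 and 1.44 ± 0.16. Acot2, the mitochondrial form, had values of 11.87, 11.83 and 11.95 with EMD, against 9.55, 9.38 and 9.80 with DMSO, and rose by 2.31 ± 0.12, with its other probe sets at 1.79 and 3.45. Acot12, a cytosolic acetyl-CoA hydrolase, rose by 2.29 ± 0.26, and Acot7 by 2.20 ± 0.16, although a dimmer probe set of Acot7 had a change of 0.10 and was not called. The 2 remaining members, Acot9 and Acot13, had changes of -0.02 ± 0.11 and 0.05 ± 0.13 with overlapping groups.

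**Figure D2:**
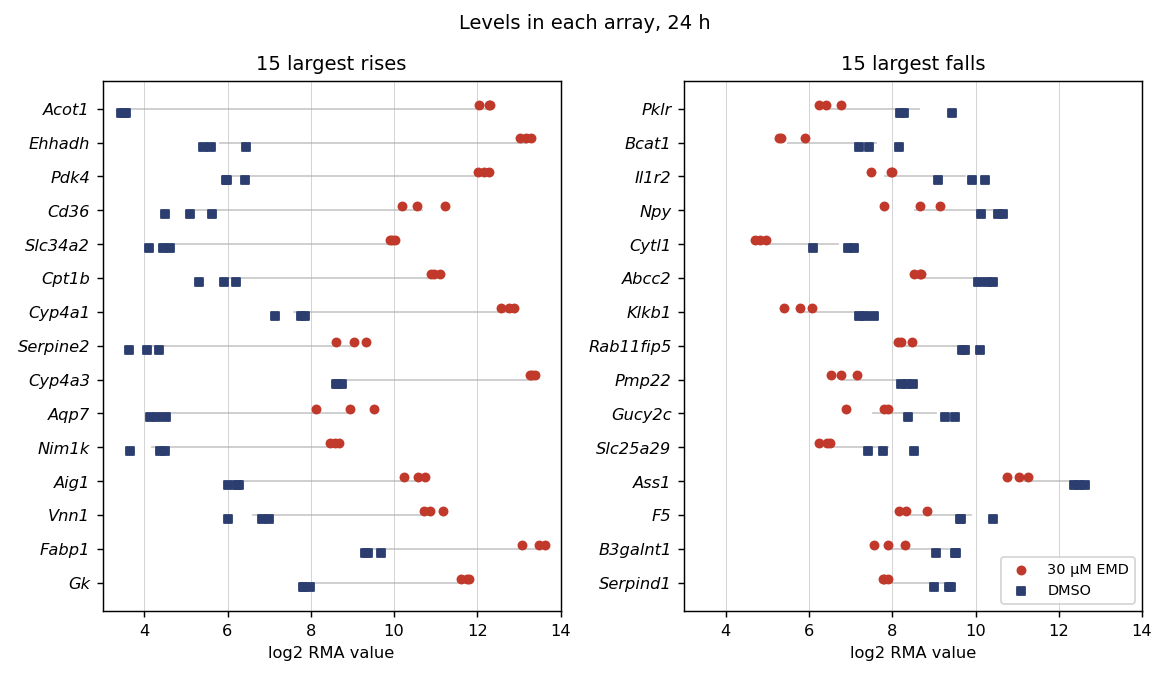
Log2 RMA values (x axis) in each array at 24 h for the 15 largest rises (left) and the 15 largest falls (right) among called genes whose groups did not overlap. Red circles are the 3 cultures with 30 µM EMD, blue squares the 3 cultures with DMSO, and grey lines join the group means. Acot1 lies at 12.03 to 12.31 with EMD and 3.45 to 3.57 with DMSO, while Pklr lies at 6.24 to 6.77 with EMD and 8.19 to 9.44 with DMSO.

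Uptake, binding and activation of fatty acids was represented by 19 measured genes, of which 7 rose and 0 fell. Cd36, the fatty acid transporter of the plasma membrane, had 10.19, 10.56 and 11.24 with EMD, against 5.63, 5.09 and 4.51 with DMSO, and rose by 5.59 ± 0.33. Its groups lay more than 4 log2 units apart, although the DMSO values straddled the array median. Fabp1, the fatty acid binding protein of the liver, rose by 3.95 ± 0.19 (15.5-fold), with 13.08, 13.64 and 13.49 with EMD, against 9.30, 9.37 and 9.69 with DMSO. Fabp3, the form of heart and muscle, rose by 2.47 ± 0.31, whereas the epidermal Fabp5 had a change of -0.36 ± 0.20 and the intestinal Fabp2 one of 0.03 ± 0.22, neither called. The synthetases that attach coenzyme A to long-chain fatty acids were led by Acsl1, with 12.83, 12.95 and 12.93 with EMD, against 9.42, 9.57 and 9.05 with DMSO, and a rise of 3.56 ± 0.11. Acsl3 rose by 3.25 ± 0.14 and Slc27a2, which activates very long-chain fatty acids, by 2.31 ± 0.23. Acsl5 was called higher at 0.46 ± 0.10, but another of its probe sets was called lower (-0.66), the mean of all its probe sets gave -0.10, and the call was lost without EMD replicate 2 or DMSO replicate 2 (adjusted p = 0.069 and 0.053), so its direction is not settled. The bile acid-CoA ligase Slc27a5 varied widely, with 8.41, 8.62 and 9.82 with EMD, against 8.93, 8.99 and 10.13 with DMSO.

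The carnitine shuttle carries activated fatty acids across the inner mitochondrial membrane. Of its 10 measured genes, 7 rose and 0 fell, with a median change of 2.51. Cpt1a, the liver form of the gatekeeper enzyme, had 9.91, 10.60 and 10.66 with EMD, against 6.64, 6.98 and 7.31 with DMSO, a rise of 3.41 ± 0.21. Cpt1b, the muscle form, had 10.95, 11.11 and 10.89 with EMD, against 5.33, 5.91 and 6.20 with DMSO, a rise of 5.17 ± 0.16. The groups of both forms were clearly apart. Downstream, the inner membrane exchanger Slc25a20 rose by 2.26 ± 0.13 and Cpt2 by 1.96 ± 0.17, while the carnitine importer Slc22a5 rose by 2.76 ± 0.10. The carnitine acyltransferases Crat and Crot rose by 3.03 ± 0.13 and 2.87 ± 0.24. Cpt1c, the form of the brain (-0.22 ± 0.11), Slc22a4 (-0.06 ± 0.23) and Bbox1, the last enzyme of carnitine synthesis (0.87 ± 0.46), were not called. The groups of each of these 3 overlapped.

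Mitochondrial β-oxidation rose almost as a whole: 14 of 16 measured genes rose and 0 fell, with a median change of 1.45. Hadha, the α subunit of the trifunctional protein that handles long chains, had 11.91, 12.09 and 11.95 with EMD, against 10.11, 10.05 and 10.12 with DMSO, a rise of 1.89 ± 0.09 (adjusted p = 3.2e-10). Its partner Hadhb rose by 1.33 ± 0.10. The dehydrogenases of the first step rose by 2.65 ± 0.18 (Acadm, medium chains), 1.51 ± 0.12 (Acadvl, very long chains), 1.17 ± 0.14 (Acads, short chains) and 1.10 ± 0.11 (Acadl, long chains). Acaa2, the thiolase of the last step, rose by 2.85 ± 0.21. Of the enzymes that prepare unsaturated chains, Eci1 rose by 3.44 ± 0.15 and Decr1 by 2.57 ± 0.27. A second probe set of Eci1 had a change of -0.10 and was not called. Electrons from the dehydrogenases pass through ETF, whose subunits had smaller rises of 0.84 ± 0.13 (Etfb) and 0.41 ± 0.09 (Etfa, a call lost without DMSO replicate 3 at an adjusted p of 0.052), and through its oxidoreductase Etfdh (1.39 ± 0.12). Echs1, the short-chain hydratase, had 9.59, 9.77 and 9.86 with EMD, against 9.42, 9.77 and 9.68 with DMSO, and was not called. Of 4 measured genes of ketone body synthesis and export 2 rose and 0 fell: the thiolase Acat1 by 2.98 ± 0.13 and the ketone and lactate transporter Slc16a1 by 0.80 ± 0.07. Bdh1, which makes 3-hydroxybutyrate, had a change of 0.82 ± 0.27 with groups that did not overlap and was not called (adjusted p = 0.095).

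In peroxisomes, 12 of 17 measured genes of fatty acid oxidation rose and 0 fell, with a median change of 1.13. Ehhadh, the bifunctional enzyme of the inducible pathway, had 13.04, 13.17 and 13.29 with EMD, against 6.45, 5.60 and 5.42 with DMSO, a rise of 7.34 ± 0.26. Hsd17b4, the bifunctional enzyme that handles branched chains and bile acid side chains, had a smaller rise of 1.79 ± 0.12. Ech1 (3.28 ± 0.17), Decr2 (2.84 ± 0.19) and Eci2 (2.23 ± 0.14), which process double bonds, rose together with Hacl1, the lyase of α-oxidation (3.21 ± 0.26). Nudt7, which breaks down coenzyme A inside peroxisomes, rose by 3.16 ± 0.10, and the transporter Abcd3 by 1.77 ± 0.12. Catalase (Cat), which removes the hydrogen peroxide that the oxidases make, had 12.15, 12.19 and 12.24 with EMD, against 11.21, 11.05 and 10.94 with DMSO, a rise of 1.13 ± 0.10. Not called were Acox2, the oxidase of bile acid intermediates (-0.04 ± 0.32), the racemase Amacr (0.08 ± 0.21), Pecr (0.22 ± 0.15), Nudt19 (0.21 ± 0.14) and the transporter Abcd2 (-0.12 ± 0.12). Acox3, the oxidase of branched chains, rose by 0.92 ± 0.15.

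Of 15 measured genes that build and divide peroxisomes, 8 rose and 0 fell, with a median change of 0.48, and the count ranged from 6 to 10 when any 1 of the 6 arrays was left out. Pex11a, which promotes division, had 11.15, 11.64 and 11.39 with EMD, against 7.83, 8.57 and 8.78 with DMSO, a rise of 3.003 ± 0.23. Pex19 and Pex16, which insert membrane proteins, rose by 1.91 ± 0.18 and 1.10 ± 0.14, and the membrane protein Pxmp4 by 1.24 ± 0.19. The import receptor Pex5 rose by 0.48 ± 0.10 (9.04, 9.29 and 9.13 with EMD, against 8.67, 8.69 and 8.66 with DMSO), and Pex6 by 0.62 ± 0.11. Dimmer probe sets of Pex16 and Pex5 had changes of 0.20 and 0.15 and were not called. Pex7, the receptor of the other import signal, had a change of 0.13 ± 0.09 and was not called.

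**Figure D3:**
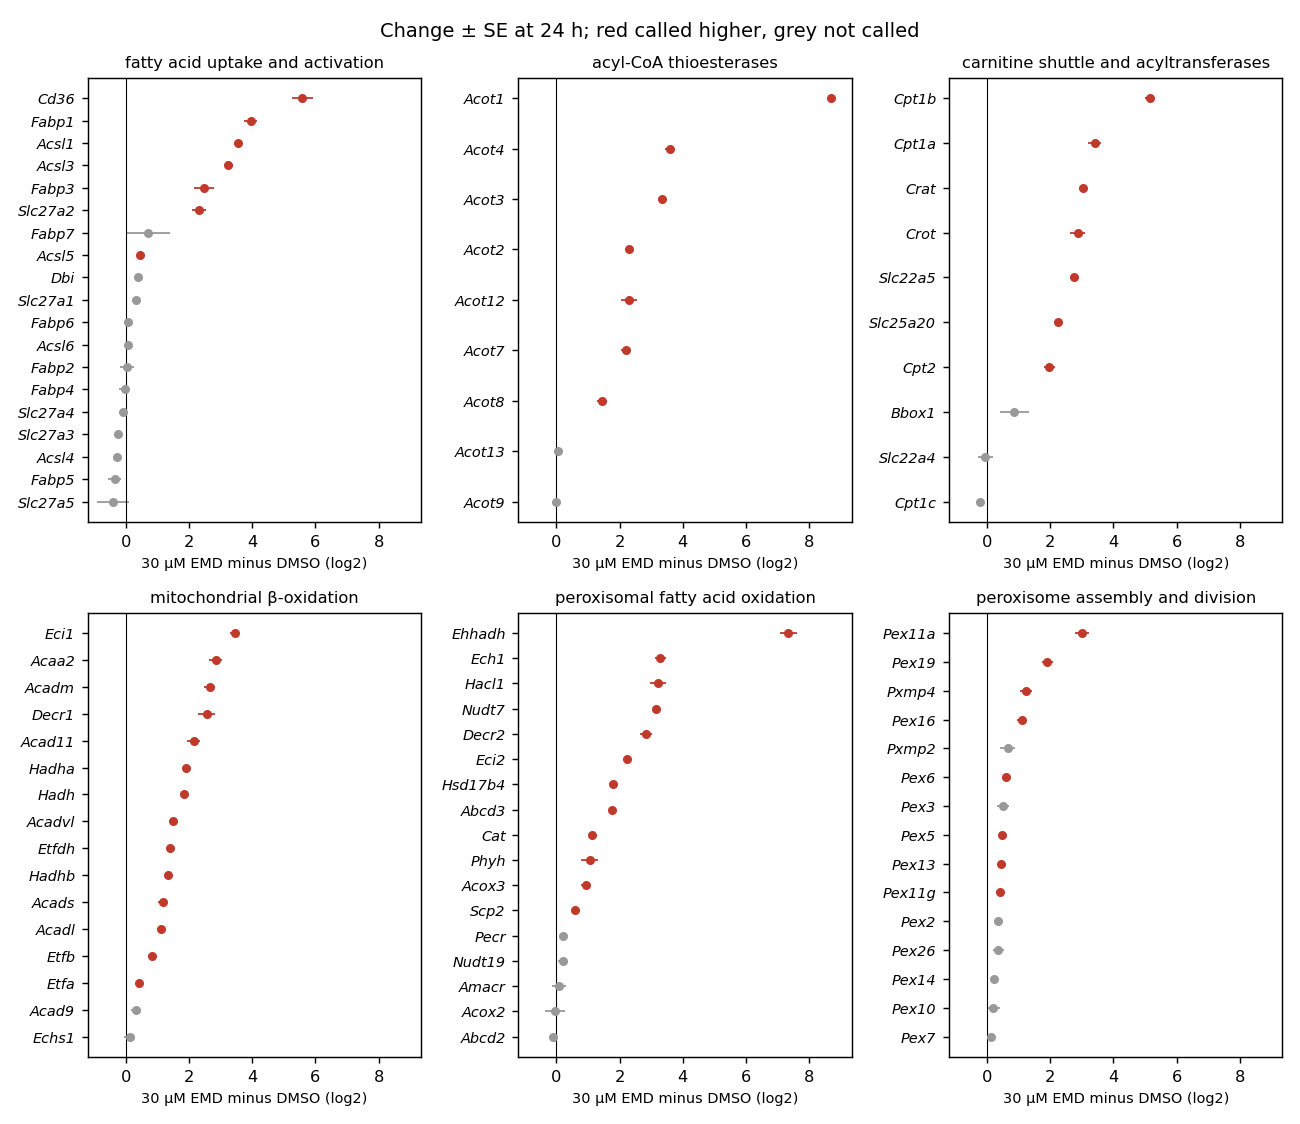
Log2 difference of 30 µM EMD minus DMSO at 24 h (x axis, point ± SE of the fit, 3 arrays per group) for each measured gene of 6 lists. Red genes were called higher and grey genes were not called. The thioesterases and the carnitine shuttle have medians of 2.29 and 2.51, peroxisome assembly one of 0.48, and no gene of these lists was called lower.

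The CYP4 enzymes, which hydroxylate fatty acids at the far end of the chain, moved in both directions. Of 10 measured, 3 rose and 2 fell. Cyp4a1 had 12.58, 12.75 and 12.88 with EMD, against 7.85, 7.77 and 7.14 with DMSO, a rise of 5.15 ± 0.23. Cyp4a3 had 13.27, 13.38 and 13.31 with EMD, against 8.66, 8.76 and 8.60 with DMSO, a rise of 4.64 ± 0.22. The 2 genes are close relatives in sequence, and how the probe sets separate them was not tested. Within the CYP4F group, which acts on leukotrienes and very long chains, Cyp4f5 rose by 1.12 ± 0.23, Cyp4f1 fell by 0.95 ± 0.18 and Cyp4f6 fell by 0.40 ± 0.10. The fall of Cyp4f6 lost its call without EMD replicate 2, EMD replicate 3, DMSO replicate 1 or DMSO replicate 2 (adjusted p = 0.059 to 0.1). Cyp4a8 (-0.12 ± 0.40) and Cyp4b1 (0.29 ± 0.27) were not called.

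Lipid droplet and lipolysis genes rose in 9 of 20 cases, and 0 fell. Pnpla2, the main triglyceride lipase, had 10.06, 10.51 and 10.37 with EMD, against 7.71, 8.03 and 8.21 with DMSO, a rise of 2.33 ± 0.19. Both of its protein inhibitors rose as well, Hilpda by 2.87 ± 0.15 and G0s2 by 1.69 ± 0.19. Mgll, which releases the last fatty acid from glycerol, rose by 2.55 ± 0.29. The droplet coat proteins Plin2 and Plin5 rose by 1.01 ± 0.08 and 1.88 ± 0.25, the droplet fusion protein Cidea by 1.39 ± 0.21 and Fitm2, which acts in droplet formation, by 1.57 ± 0.12. Angptl4, a secreted inhibitor of lipoprotein lipase, had 11.89, 12.11 and 12.16 with EMD, against 8.85, 8.92 and 8.89 with DMSO, a rise of 3.17 ± 0.13. Hormone-sensitive lipase (Lipe, -0.12 ± 0.11), the lipase partner Abhd5 (0.17 ± 0.09) and the fat cell coat protein Plin1 (0.00 ± 0.13) were not called.

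Triglyceride synthesis rose in 5 of 11 genes, with 0 falling. Dgat1 and Dgat2, which add the third fatty acid, rose by 1.01 ± 0.10 and 0.68 ± 0.11, and Agpat2 and Agpat3 by 1.02 ± 0.11 and 0.68 ± 0.12. Other probe sets of Agpat3 had changes of 0.67 and 0.43, both called, and of -0.08, -0.11 and -0.16, not called. The fifth gene called was Gpam, the mitochondrial enzyme of the first step, which had 8.62, 8.74 and 8.46 with EMD, against 7.75, 8.32 and 8.07 with DMSO (0.56 ± 0.15). Its call was lost without EMD replicate 1, EMD replicate 2, DMSO replicate 1 or DMSO replicate 3 (adjusted p = 0.074 to 0.15). Of 6 glycerol genes 4 rose. The glycerol channel Aqp7, known from fat tissue, had 8.13, 9.51 and 8.94 with EMD, against 4.31, 4.14 and 4.51 with DMSO, a rise of 4.54 ± 0.30 from below the array median. Glycerol kinase (Gk) rose by 3.85 ± 0.16 (14.4-fold) and the glycerol-3-phosphate dehydrogenases Gpd2 and Gpd1 by 2.30 ± 0.24 and 1.42 ± 0.24. Aqp9, the usual glycerol channel of hepatocytes, had 5.34, 5.51 and 5.50 with EMD, against 6.44, 6.31 and 6.52 with DMSO. Although these groups did not overlap, its change of -0.97 ± 0.51 was not called in the fit to all arrays (adjusted p = 0.38), whereas a fit to the 6 arrays alone called it (adjusted p = 0.001). The third aquaporin, Aqp3, differed strongly among EMD cultures, with 4.80, 6.73 and 5.81 against 4.39, 4.15 and 4.56 with DMSO (adjusted p = 0.059).

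Fatty acid synthesis was mixed. Of 20 measured genes 4 rose and 2 fell. Elovl6, which lengthens palmitate, had 8.75, 9.10 and 9.27 with EMD, against 6.13, 6.47 and 6.26 with DMSO, a rise of 2.75 ± 0.18. Malic enzyme (Me1), a source of NADPH, rose by 1.64 ± 0.21 and the desaturase Scd by 0.82 ± 0.17. Of the enzymes that commit carbon to synthesis, Acly fell by 0.68 ± 0.15 and Acaca by 0.71 ± 0.16, while fatty acid synthase (Fasn) had 8.98, 8.83 and 9.22 with EMD, against 9.28, 9.77 and 9.18 with DMSO, and was not called. Both falls depended on single arrays, although a dimmer probe set of Acaca was called lower as well (-0.62). That of Acaca lost its call without EMD replicate 1, EMD replicate 2 or DMSO replicate 2 (adjusted p = 0.064 to 0.084) and that of Acly without EMD replicate 2, DMSO replicate 2 or DMSO replicate 3 (0.054 to 0.067), and a fit to the 6 arrays alone called neither. The fourth rise, Elovl1 (0.45 ± 0.13), was lost without any 1 of the 6 arrays (0.062 to 0.18). The regulators Srebf1 (0.52 ± 0.25) and Mlxipl (-0.50 ± 0.15) were not called.

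In cholesterol synthesis the calls were few and rested on single arrays. Of 19 measured genes 3 were called higher, Fdps (0.64 ± 0.15), Insig1 (0.74 ± 0.20) and Dhcr7 (0.55 ± 0.14), and 0 lower. The count was 0 without EMD replicate 1, and 1 without EMD replicate 3, DMSO replicate 2 or DMSO replicate 3. Fdps lost its call without EMD replicate 1, EMD replicate 3 or DMSO replicate 2 (0.06 to 0.079), Insig1 without EMD replicate 1, DMSO replicate 2 or DMSO replicate 3 (0.093 to 0.18), and Dhcr7 without any EMD array or DMSO replicate 3 (0.05 to 0.14). Squalene epoxidase (Sqle) had 9.92, 8.55 and 8.81 with EMD, against 9.37, 8.11 and 9.28 with DMSO, so that the replicates within a group differed more than the group means (0.17 ± 0.36). Hsd17b7, of the late pathway, had 8.50, 7.29 and 8.33 with EMD, against 6.91, 6.26 and 6.84 with DMSO, with groups apart and an adjusted p of 0.062.

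The mRNAs of the PPAR genes, Rxra and Rxrb showed no called change. Ppara had 6.59, 6.63 and 6.29 with EMD, against 6.26, 6.69 and 6.60 with DMSO, and Pparg had 5.06, 5.75 and 5.71 with EMD, against 5.17, 5.33 and 5.15 with DMSO. The groups overlapped for both, and also for Ppard (-0.21 ± 0.16), Rxra (0.20 ± 0.16) and Rxrb (-0.05 ± 0.09). Rxrg, the RXR form of muscle and brain, rose by 1.50 ± 0.18 (7.996, 7.56 and 7.64 with EMD, against 6.73, 6.19 and 5.80 with DMSO), although its dimmer probe set had a change of 0.03. Among 20 nuclear receptors and coregulators 4 were called higher and 0 lower. Beside Rxrg these were the oxysterol receptor Nr1h3 (0.51 ± 0.10), the xenobiotic receptor Nr1i2 (0.55 ± 0.12) and the bile acid receptor Nr1h4 (0.54 ± 0.15). Without EMD replicate 2 the count was 2, since Nr1i2 (adjusted p = 0.058) and Nr1h4 lost their calls. Nr1h4 also lost it without EMD replicate 3, DMSO replicate 1 or DMSO replicate 3 (0.11 to 0.17 over these arrays), and Nr1h3 in a fit to the 6 arrays alone (0.068). The coactivator Ppargc1a had a change of -0.38 ± 0.22 and the constitutive androstane receptor Nr1i3 one of 1.49 ± 0.43 (adjusted p = 0.057) with groups that did not overlap, which a fit to the 6 arrays alone called (0.0086). Among 13 genes of fat cells that PPARγ is known to control, 2 rose, Aqp7 and Cidea, and 0 fell, with a median change of 0.00. The defining fat cell genes stayed low: Fabp4 had 4.30, 3.81 and 3.60 with EMD, against 4.43, 3.78 and 3.61 with DMSO, and Adipoq, Plin1, Lpl and Ucp1 likewise had values under the array median in all 6 arrays.

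In carbohydrate metabolism 5 of 21 genes were called higher and 3 lower. Pdk4, the kinase that switches off pyruvate dehydrogenase, had 12.02, 12.28 and 12.15 with EMD, against 5.99, 5.97 and 6.42 with DMSO, a rise of 6.03 ± 0.19, and its other probe set rose by 4.23. The other kinases Pdk1 (0.08 ± 0.12), Pdk2 (-0.26 ± 0.16) and Pdk3 (0.07 ± 0.13) were not called, while the opposing phosphatase Pdp2 rose by 1.48 ± 0.17. Pyruvate kinase of the liver (Pklr), the last step of glycolysis, had 6.24, 6.77 and 6.40 with EMD, against 8.28, 9.44 and 8.19 with DMSO, the largest fall at 2.17 ± 0.26 below DMSO (adjusted p = 3.6e-05). Both of its probe sets fell. Of the enzymes of glucose formation, Fbp1 had 11.84, 11.74 and 11.95 with EMD, against 10.17, 10.07 and 9.41 with DMSO (1.96 ± 0.20), and pyruvate carboxylase (Pc) rose by 1.73 ± 0.22. Pck1, the cytosolic enzyme between them, had 7.13, 6.25 and 6.53 with EMD, against 6.45, 6.22 and 6.28 with DMSO, and was not called. Glycogen synthase of the liver (Gys2) rose by 1.67 ± 0.17, while the glucose transporter Slc2a2 (10.78, 10.53 and 11.01 with EMD, against 11.95, 12.03 and 11.82 with DMSO) fell by 1.17 ± 0.14 and the glycogen targeting subunit Ppp1r3b fell by 0.73 ± 0.14.

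Among 16 bile acid genes 1 was called higher and 1 lower. Cyp8b1, the sterol 12α-hydroxylase that makes cholic acid, had 9.12, 9.88 and 9.62 with EMD, against 6.38, 6.35 and 6.95 with DMSO, a rise of 2.98 ± 0.43. Abcc2, which exports conjugates into bile, had 8.51, 8.68 and 8.66 with EMD, against 10.06, 10.42 and 10.29 with DMSO, and fell by 1.64 ± 0.31. The bile acid importer Slc10a1 had 5.62, 6.80 and 5.92 with EMD, against 6.51, 8.09 and 7.31 with DMSO, and was not called (adjusted p = 0.31). Cyp7a1, the first enzyme of the pathway, had 4.11, 4.87 and 5.20 with EMD, against 5.22, 7.27 and 4.47 with DMSO, and was not called either.

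Of 23 cytochromes P450 and their reductase 2 rose and 0 fell: Cyp2j4, an arachidonic acid epoxygenase (2.52 ± 0.32), and the reductase Por (0.83 ± 0.16). Of the forms used as signs of other xenobiotic receptors, Cyp1a1 and Cyp3a2 were not called. Cyp1a1 was at -0.16 ± 0.27 (10.58, 10.46 and 10.35 with EMD, against 10.29, 10.56 and 11.03 with DMSO) and Cyp3a2 at -0.65 ± 0.29 (10.54, 10.61 and 9.71 with EMD, against 10.69, 10.87 and 11.26 with DMSO). Other such forms, Cyp2b1, Cyp2b2 and Cyp3a23/3a1, had no probe set with that symbol alone and were not tested as genes. Cyp2c11, the form typical of male rat liver, had a change of -0.41 ± 0.35. Among 19 genes of conjugation and hydrolysis 3 rose and 0 fell. Soluble epoxide hydrolase (Ephx2), which also sits in peroxisomes, had 11.33, 11.39 and 11.32 with EMD, against 8.59, 8.63 and 8.22 with DMSO, a rise of 2.87 ± 0.15. The carboxylesterases Ces1d and Ces2c rose by 1.90 ± 0.35 and 1.27 ± 0.16, whereas no sulfotransferase or glucuronosyltransferase of the list was called. Of 17 aldehyde dehydrogenases 2 rose, Aldh1a1 (2.52 ± 0.19), which oxidises retinaldehyde, and the fatty aldehyde dehydrogenase Aldh3a2 (0.98 ± 0.17). Aldh2, the mitochondrial form, fell by 0.51 ± 0.12, a call lost without EMD replicate 2, EMD replicate 3, DMSO replicate 2 or DMSO replicate 3 (0.053 to 0.064).

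Most genes of secreted liver proteins were not called. Albumin (Alb) had 14.67, 14.70 and 14.71 with EMD, against 14.63, 14.62 and 14.70 with DMSO. In coagulation, 3 of 13 genes fell and 0 rose: prekallikrein (Klkb1) by 1.62 ± 0.33, factor V (F5) by 1.45 ± 0.29 and heparin cofactor II (Serpind1) by 1.44 ± 0.26, the last with 7.78, 7.80 and 7.90 with EMD, against 8.997, 9.42 and 9.37 with DMSO. Among 15 apolipoproteins and factors of VLDL assembly, Mttp, which loads lipid onto apolipoprotein B, had 11.48, 11.43 and 11.29 with EMD, against 9.50, 9.90 and 9.68 with DMSO, a rise of 1.70 ± 0.11, and Apoa5 fell by 0.91 ± 0.18. Apoa1 had 13.57, 13.47 and 13.36 with EMD, against 13.63, 13.63 and 13.61 with DMSO, and was not called (adjusted p = 0.46). Of 15 acute phase genes 4 fell and 0 rose: the fibrinogen chains Fgb (-0.95 ± 0.19) and Fgg (-0.65 ± 0.15), the interleukin 6 receptor Il6r (-0.93 ± 0.19) and its signal carrier Stat3 (-0.59 ± 0.12). Without EMD replicate 2 the count was 2, with Stat3 at an adjusted p of 0.051. Fgg lost its call without EMD replicate 2, EMD replicate 3 or DMSO replicate 3 (0.07 to 0.093) and Fgb in a fit to the 6 arrays alone (0.077), and 2 dimmer probe sets of Fgb had changes of -0.08 and 0.14. Of 16 complement genes 1 was called higher, Masp2 (0.52 ± 0.13), a call lost without EMD replicate 2, EMD replicate 3, DMSO replicate 1 or DMSO replicate 3 (0.051 to 0.12). Another probe set of Masp2 was called higher as well (0.84), while a further one had a change of 0.005 and was not called.

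Amino acid catabolism moved in both directions, with 5 of 28 genes called higher and 2 lower. Of the enzymes of branched-chain breakdown, Hibch rose by 1.15 ± 0.16 and Bckdha by 0.77 ± 0.16, while Bcat1, a transaminase of these amino acids that adult hepatocytes hardly use, fell: it had 5.89, 5.27 and 5.32 with EMD, against 7.43, 7.20 and 8.16 with DMSO (-2.10 ± 0.29). A dimmer probe set of Bckdha had a change of 0.45 and was not called. Cbs, of homocysteine breakdown, rose by 1.33 ± 0.26 and Kmo, of the kynurenine pathway, fell by 0.99 ± 0.15. The count of 5 included Dbt and Pccb and was 3 without EMD replicate 1 or DMSO replicate 3, since Dbt lost its call without either of these (0.062 and 0.051) and Pccb without any EMD array or DMSO replicate 3 (0.058 to 0.14). In the urea cycle 2 of 10 genes fell. Ass1 had 11.26, 10.76 and 11.03 with EMD, against 12.37, 12.63 and 12.49 with DMSO, and fell by 1.48 ± 0.22. Cps1, the entry step, had 12.03, 12.25 and 12.27 with EMD, against 12.62, 12.90 and 12.47 with DMSO (-0.48 ± 0.13), a call lost without any 1 array but DMSO replicate 3 (0.061 to 0.16). Its dimmer probe set was called lower as well (-1.02).

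Among 18 NRF2 targets and antioxidant enzymes 0 were called higher and 2 lower, Gclc, which makes glutathione (-0.96 ± 0.20), and Srxn1 (-1.27 ± 0.28). Srxn1 had 10.36, 10.06 and 9.69 with EMD, against 11.04, 10.95 and 11.92 with DMSO, and lost its call without EMD replicate 3 or DMSO replicate 3 (0.062 and 0.058). Nqo1 (-0.70 ± 0.49) and Hmox1 (-0.47 ± 0.30) were not called, and their groups overlapped. Of 21 genes of ER stress and the integrated stress response, Xbp1 alone passed, with 10.29, 10.01 and 10.21 with EMD, against 10.93, 11.03 and 10.91 with DMSO (-0.78 ± 0.09, adjusted p = 1.2e-05). The chaperone Hspa5 (0.01 ± 0.21), Ddit3 (0.00 ± 0.13) and Atf4 (-0.15 ± 0.10) were not called. Of 7 heat shock genes, the mitochondrial chaperonin Hspd1 rose by 0.41 ± 0.08, and of 14 genes of autophagy and lysosomes, 2 were called higher and 1 lower. Acid lipase (Lipa) rose by 0.54 ± 0.11 and the autophagy receptor Sqstm1 fell by 0.42 ± 0.08 (adjusted p = 0.067 in a fit to the 6 arrays alone). Other probe sets of Sqstm1 had changes of -0.36, -0.23 and -0.17 and were not called. Cathepsin D (Ctsd) was the other rise (0.26 ± 0.07), lost without any 1 array but DMSO replicate 1 (0.082 to 0.17).

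Cytoskeletal and mesenchymal genes were called lower in 5 of 18 cases and higher in 1, but the count was 1 without EMD replicate 2, 4 without EMD replicate 1 and 3 without each of the other arrays. Cdh2, N-cadherin, which hepatocytes carry, had 10.36, 10.11 and 9.91 with EMD, against 11.004, 11.07 and 11.01 with DMSO, and fell by 0.90 ± 0.16. Vim (-0.77 ± 0.17), Krt8 (-0.52 ± 0.11), Krt18 (-0.48 ± 0.12) and Tgfbr1 (-0.34 ± 0.09) were the others. Vim lost its call without EMD replicate 2 or DMSO replicate 2 (0.076 and 0.053), Krt8 without EMD replicate 2 (0.056), Krt18 without EMD replicate 2, EMD replicate 3, DMSO replicate 1 or DMSO replicate 3 (0.059 to 0.13) and Tgfbr1 without any 1 array (0.054 to 0.15). Another probe set of Tgfbr1 had a change of -0.0065 and was not called. In the same arrays 11 stellate cell and fibroblast markers summed to 7.99 to 8.07 with EMD, against 8.10 to 8.27 with DMSO, without overlap, and 9 of the 11 lay under the array median with DMSO. The part of such cells in these falls was not tested. Of 29 cell cycle genes 1 was called higher, Ccnd1 (0.98 ± 0.27, lost without any 1 array but DMSO replicate 1, 0.085 to 0.16), and Mki67 had 3.12, 2.84 and 3.15 with EMD, against 3.28, 3.04 and 2.90 with DMSO. Of 15 p53 targets, Sesn1 fell by 0.90 ± 0.14 and Ccng1 by 0.51 ± 0.13 (lost without any 1 array but DMSO replicate 2, 0.064 to 0.14). Of 21 genes of chemokines, interleukin-1 receptors and NF-κB responses 1 was called higher and 2 lower. The decoy receptor Il1r2 had 7.99, 7.96 and 7.50 with EMD, against 9.09, 9.91 and 10.22 with DMSO (-1.93 ± 0.32), and the signalling form Il1r1 fell by 0.59 ± 0.10, although 2 dimmer probe sets of Il1r1 had changes of -0.31 and -0.16 and were not called. The rise was that of Birc3, an inhibitor of apoptosis (0.57 ± 0.16), a call lost without any 1 array but DMSO replicate 1 (0.071 to 0.19). Of 18 interferon-inducible genes limma called 0, with 1 at an unadjusted p under 0.05, and Isg15 varied between cultures, with 11.09, 9.72 and 8.29 with EMD, against 10.61, 8.98 and 9.99 with DMSO.

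Iron handling had 4 of 10 genes called higher and 1 lower, Smad7 (-0.39 ± 0.09), whose call was lost without EMD replicate 2, EMD replicate 3 or DMSO replicate 1 (0.065 to 0.069). Other probe sets of Smad7 had changes of -0.21 and -0.13 and were not called. The iron transporter Slc11a2 had 9.09, 9.18 and 9.14 with EMD, against 8.23, 8.11 and 7.80 with DMSO, a rise of 1.10 ± 0.12. A dimmer probe set of Slc11a2 had a change of 0.24 and was not called. Hjv and Tfr2, membrane proteins of the path that leads to hepcidin, rose by 1.04 ± 0.20 and 0.68 ± 0.10, and Id1, a target of BMP signalling, by 0.88 ± 0.16. Hepcidin itself (Hamp) had 10.31, 9.08 and 8.84 with EMD, against 11.10, 10.24 and 10.91 with DMSO, overlapped between the groups and was not called (adjusted p = 0.24). Of 18 clock genes 2 were called higher and 2 lower: Hlf (1.25 ± 0.30), Nr1d2 (0.71 ± 0.20), Nfil3 (-0.63 ± 0.14) and Usp2 (-0.68 ± 0.18). All 4 lost their calls without EMD replicate 2, and also without further arrays (0.064 to 0.22 over these genes). Fgf21, a fasting hormone of the liver, had 9.15, 9.43 and 9.45 with EMD, against 8.67, 8.55 and 8.59 with DMSO. Its groups did not overlap, but the change of 0.74 ± 0.30 was not called (adjusted p = 0.21, and 0.0074 in a fit to the 6 arrays alone).

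Among 42 mitochondrial carriers and uncoupling proteins 6 rose (14.3%, against 4.37% of all genes) and 3 fell (7.14%, against 2.86%). The uncoupling protein Ucp2 had 8.52, 8.71 and 8.79 with EMD, against 6.12, 5.31 and 5.81 with DMSO, a rise of 2.93 ± 0.24, and the coenzyme A carrier Slc25a42 rose by 2.30 ± 0.13. The ADP/ATP carrier Slc25a4 of muscle had 8.45, 8.96 and 9.69 with EMD, against 7.18, 7.09 and 7.24 with DMSO (1.87 ± 0.31), and the basic amino acid carrier Slc25a29 fell by 1.51 ± 0.24. Of 84 subunits of the respiratory chain and ATP synthase 4 were called higher (2 without EMD replicate 2, EMD replicate 3 or DMSO replicate 3) and 1 lower, with Ndufa3 at 0.68 ± 0.11 and Ndufc1 at 0.45 ± 0.09 and a median change of 0.03. None of 73 mitochondrial ribosomal proteins, 36 proteasome subunits or 48 cytosolic ribosomal proteins was called by limma, and 8, 3 and 5 of them, in that order, had an unadjusted p under 0.05. The cytosolic ribosomal proteins leaned low, with groups that did not overlap on the lower side for 27 of 48, against 14.8% of all genes, while their median change was -0.10, and -0.05 after cyclic loess between arrays.

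**Figure D4:**
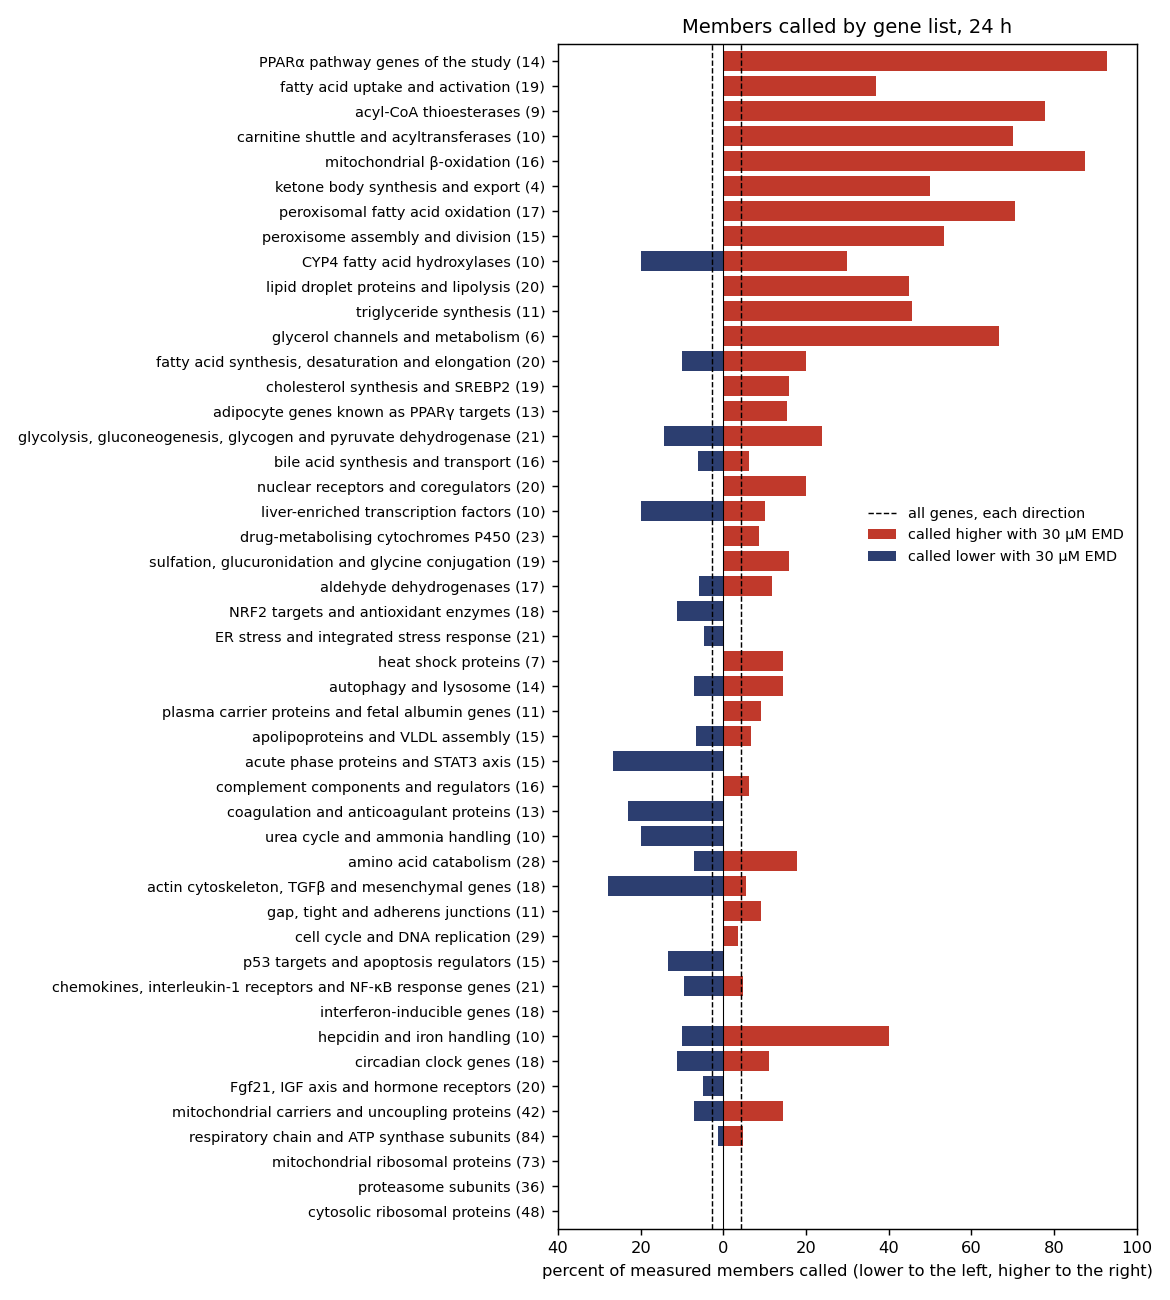
Percent of the measured members of each list that limma called higher (red, to the right) or lower (blue, to the left) with 30 µM EMD at 24 h, with the number measured in brackets. Dashed lines mark all genes, at 4.37% higher and 2.86% lower. The study's own PPARα list, at 92.9% called higher, was printed by the study with fold changes from this series. All lists were chosen with earlier results of these data known, so none is independent evidence of its direction. Among lists other than the study's, mitochondrial β-oxidation reaches 87.5% called higher, and the ribosomal and proteasome lists at the bottom have 0.

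Several of the largest moves lay outside these lists. Slc34a2, a sodium-dependent phosphate transporter, had 10.02, 9.96 and 9.91 with EMD, against 4.61, 4.12 and 4.45 with DMSO, a rise of 5.57 ± 0.30. Serpine2, an inhibitor of thrombin-like proteases, rose by 4.97 ± 0.23, the kinase Nim1k by 4.39 ± 0.24 and Aig1, a membrane hydrolase of fatty acid esters, by 4.34 ± 0.15, although a second probe set of Aig1 had a change of 0.06. Vnn1, which recycles pantothenate from coenzyme A breakdown, had 10.72, 10.87 and 11.18 with EMD, against 6.99, 6.84 and 6.02 with DMSO (4.31 ± 0.22). Of these, Slc34a2, Serpine2 and Nim1k had DMSO values under the array median. On the lower side, neuropeptide Y (Npy) had 9.14, 8.67 and 7.80 with EMD, against 10.14, 10.66 and 10.54 with DMSO (-1.91 ± 0.38), and the cytokine-like protein Cytl1 fell by 1.87 ± 0.25. Rab11fip5, of endosome recycling, fell by 1.58 ± 0.17, the membrane protein Pmp22 by 1.54 ± 0.27 and the glycosyltransferase B3galnt1 by 1.44 ± 0.28. Gucy2c, the guanylin receptor, fell by 1.52 ± 0.42, a call lost without any 1 array but DMSO replicate 1 (0.065 to 0.17). Of the 1664 called probe sets, 294 had no gene symbol and 24 had several, and those were not named, the largest of them rising by 6.05 ± 0.16.

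Marker levels of the cell types that such a culture can hold were compared in the same arrays. The summed level of 7 hepatocyte markers was 16.23 to 16.28 with EMD, against 16.24 to 16.30 with DMSO (log2 of the summed linear values). That of 14 macrophage markers was 10.61 to 10.91 with EMD, against 11.32 to 11.77 with DMSO, with no overlap. The lysozyme gene Lyz2 had 9.69, 9.36 and 9.42 with EMD, against 10.48, 10.66 and 10.995 with DMSO, and was the only macrophage marker called (-1.22 ± 0.22), while 7 of the 14 lay under the array median with DMSO. Linear values were summed, so bright members weigh most, and Lyz2 alone made up a large part of the macrophage sum. Of the 14 markers, 2 had groups that did not overlap on the lower side and 0 on the higher side. The shares over all genes were 14.8% and 10.3%. The sum without Lyz2 was not tested. In bulk RNA fewer cells of a type and less RNA per cell cannot be told apart, and the part of macrophages in the falls of Il1r1, Il1r2 and other immune genes was not tested. Cholangiocyte markers summed to 8.44 to 9.27 with EMD, against 7.99 to 8.45 with DMSO, and 8 endothelial markers to 7.17 to 7.29 with EMD, against 7.07 to 7.18 with DMSO. The cholangiocyte marker Epcam had 8.07, 9.09 and 8.87 with EMD, against 7.47, 8.11 and 7.68 with DMSO, and was called (0.92, adjusted p = 0.042), but not without EMD replicate 2, EMD replicate 3, DMSO replicate 1 or DMSO replicate 3 (0.12 to 0.21). Of 8 lymphocyte markers all lay under the array median with DMSO. RNA integrity differed little: the 3′ minus 5′ difference was 1.33 ± 0.053 with EMD and 1.31 ± 0.039 with DMSO for β-actin (SD, n = 3 each, two-sided exact permutation p = 0.7), and 0.266 ± 0.030 with EMD and 0.289 ± 0.013 with DMSO for Gapdh (exact p = 0.4). For hexokinase it was 1.63 ± 0.073 with EMD and 1.40 ± 0.121 with DMSO, without overlap (exact p = 0.1, the smallest that 3 against 3 allows), and its part in the results was not tested.

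Whether a higher dose moved the same genes further at 24 h was tested directly as 100 µM minus 30 µM. No probe set was called (0.0%) by limma, 1421 had an unadjusted p under 0.05, and the smallest adjusted p was 0.292. Acot1 was at 12.05, 12.24 and 12.26 with 100 µM, against 12.03, 12.31 and 12.29 with 30 µM, a difference of -0.03 with a 95% interval from -0.22 to 0.17. For Cpt1b the difference was -0.30 (-0.63 to 0.04) and for Pklr -0.47 (-1.02 to 0.08). Some intervals excluded 0 without passing the adjustment, with Cd36 at -0.71 (-1.40 to -0.02), Elovl6 at 0.70 (0.32 to 1.07) and Abcc2 at 0.67 (0.01 to 1.32). Of the 1664 probe sets called at 30 µM, 1597 had an interval of the dose difference that lay within 1 log2 unit of 0, and 1117 had one within 0.5. The replicate numbers of the 2 doses went together, and with the replicate as a block 3 probe sets were called, all lower with 100 µM: Dnase1l3 (-1.41), Gstm2 (-0.71) and a dimmer probe set of Bdh1 (-0.87). A missing call does not show that the 2 doses act alike.

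The response to 30 µM was then compared between the times, as the difference at 72 h minus that at 24 h. It differed for 292 of 31042 probe sets (0.941%), 128 higher (0.412%) and 164 lower (0.528%), a count that leaving out 1 of the 12 arrays moved between 123 and 475. It was 123 without EMD replicate 2 or DMSO replicate 2 of 72 h and 475 without DMSO replicate 3 of 72 h. The largest gains included a gene not called at 24 h: Aqp3 had 9.75, 10.52 and 10.31 with EMD at 72 h, against 4.13, 4.67 and 4.35 with DMSO at 72 h, and its response was 4.39 ± 0.59 higher than at 24 h. Fabp3 gained 3.89 ± 0.44 and Lrrc39, a muscle sarcomere protein, 3.66 ± 0.40. Other genes differed less between EMD and DMSO at 72 h although their level with EMD was as high: Cyp4a3 had 13.54, 13.73 and 13.68 with EMD at 72 h, against 10.68, 12.06 and 11.71 with DMSO at 72 h, so that its response differed by -2.48 ± 0.31. Pdk4 stood at 7.67 to 8.74 with DMSO at 72 h and at 5.97 to 6.42 with DMSO at 24 h, and its response differed by -1.62 between the times (adjusted p = 0.0081). The same direction was found for Angptl4 (-1.52) and Eci1 (-1.44). The response of Il1r2 differed by -3.004 ± 0.45 and was a deeper fall, with 3.41, 3.62 and 3.73 with EMD at 72 h, against 7.81, 8.63 and 9.10 with DMSO at 72 h. Acot1 (12.93, 12.93 and 12.90 with EMD at 72 h, against 4.06, 4.31 and 4.21 with DMSO at 72 h) was not among the genes whose response differed.

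**Figure D5:**
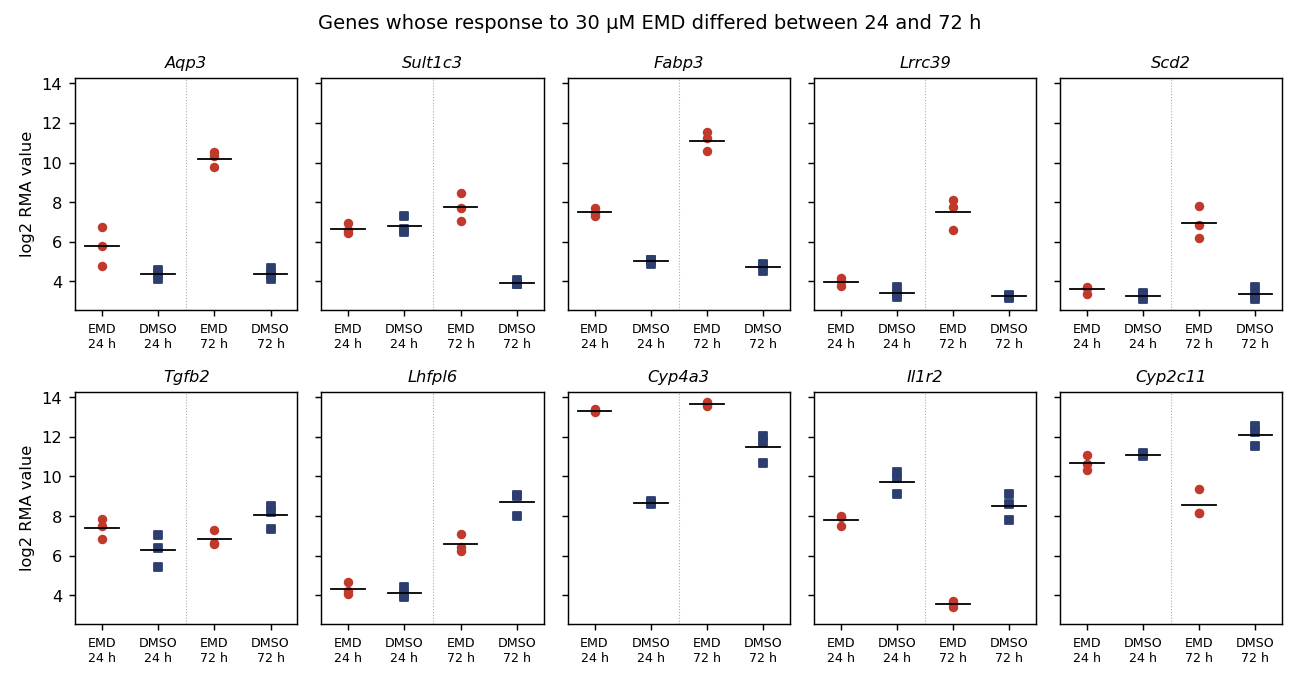
Log2 RMA values (y axis) in each array with 30 µM EMD (red circles) and DMSO (blue squares) at 24 and 72 h for the 10 genes with the largest differences in response, with black bars for group means. Aqp3 with EMD lies at 4.80 to 6.73 at 24 h and at 9.75 to 10.52 at 72 h, while Cyp4a3 with DMSO lies at 8.60 to 8.76 at 24 h and at 10.68 to 12.06 at 72 h.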

How the data were processed

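Total RNA of 18 cultures was hybridised by the authors to Affymetrix Rat Genome 230 2.0 arrays, 1 culture per array. The deposited values are log2 RMA values, background-corrected, quantile-normalised and summarised per probe set by the authors, and which version of RMA was run is not stated in the labels or methods. They were tested as deposited, without the 57 control probe sets, and 0 value columns lacked a sample. All 6 groups of 3 arrays entered 1 limma fit (R 4.3.3, limma 3.58.1, lmFit and eBayes) over 31042 probe sets, with Benjamini-Hochberg adjustment and a threshold of 0.05. The contrasts were 30 µM EMD minus DMSO at 24 h, 100 minus 30 µM at 24 h, and the response to 30 µM at 72 h minus that at 24 h. The platform annotation gave 1 symbol for 20826 probe sets, several for 436 and none for 9780, and the last 2 kinds are not named. Where a gene had several probe sets, the one brightest on average over the 18 arrays stands for it. Of 361 called genes with more probe sets, 169 had another called the same way and 2 had one called the opposite way. Other probe sets are given in the text for some genes only, so where none is given the probe sets of a gene may still differ.

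Genes were named by rule: the 15 largest rises and 15 largest falls with groups that did not overlap, up to 4 called members per list with the largest change (the first 2 measured members where fewer than 2 were called), the PPAR and RXR genes, the study's PPARα genes, and up to 5 genes each way for the dose and time contrasts. This gave 189 genes. Other list members that are named were chosen after their values were seen. The groups of genes and the 54 lists were chosen with earlier results of these data known. In data simulated for the 24 h comparison over 31042 probe sets, with 50 changed per size, the fit recovered 58% of changes of 0.5, 92% of 1, 98% of 1.5 and 100% of 2 on the log2 scale, with 11 false calls. The number of arrays limits the precision, and the median SE of a difference was 0.116. Whether same-numbered arrays deviated together from their group means was checked: the 3 pairs of 100 and 30 µM at 24 h had correlations of 0.63, 0.53 and 0.43, so a blocked count is given beside that contrast, whereas 1 pair of 30 µM and DMSO at 24 h had 0.0058. Alternatives covered the normalisation, moderation, weights, filter, probe set choice, arrays in the fit, replicate block and each array left out. Tables were handled with Python 3.11.15 and pandas 2.3.3, and figures drawn with matplotlib 3.10.9.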

Additional observations from a re-analysis of the deposited data

Results flagged for a closer look

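The response to 30 µM EMD differed between the times for the 10 genes below, by limma's test of the difference itself (response at 72 h minus response at 24 h). The 5 that gained most were Aqp3, an aquaporin (4.39 ± 0.59, adjusted p = 0.0019), Sult1c3, a sulfotransferase (3.97 ± 0.62, 0.0059), Fabp3 (3.89 ± 0.44, 0.00053), Lrrc39 (3.66 ± 0.40, 0.00053) and the desaturase Scd2 (3.23 ± 0.57, 0.011).

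Sult1c3 had 8.46, 7.72 and 7.05 with EMD at 72 h, against 3.87, 4.07 and 3.86 with DMSO at 72 h, whereas at 24 h it had 6.93, 6.45 and 6.58 with EMD, against 6.65, 6.50 and 7.30 with DMSO. Scd2 had 7.79, 6.85 and 6.18 with EMD at 72 h, against 3.29, 3.13 and 3.73 with DMSO at 72 h, and overlapped between the groups at 24 h.

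The 5 with the most negative differences were Cyp2c11 (-3.15 ± 0.50, 0.0064), Il1r2 (-3.004 ± 0.45, 0.0045), Cyp4a3 (-2.48 ± 0.31, 0.0012), Lhfpl6 (-2.32 ± 0.52, 0.041) and the growth factor Tgfb2 (-2.31 ± 0.52, 0.046). Cyp2c11 had 8.15, 8.14 and 9.36 with EMD at 72 h, against 11.56, 12.53 and 12.24 with DMSO at 72 h. The calls of Lhfpl6 (adjusted p = 0.054 to 0.12) and Tgfb2 (0.08 to 0.13) were lost when single arrays were left out.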

How the results depend on the processing

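Of 1664 probe sets called at 24 h, 1010 remained among the 1027 called without EMD replicate 2, the lowest count when 1 array was left out (highest 1420), and 441 differed by at least 2-fold as well. Counts higher ranged over 731 to 958 without single arrays and were 658 with 1 probe set per gene. Counts lower ranged over 296 (without EMD replicate 2) to 517, were 383 without EMD replicate 3, and 402 in a fit on the compared groups only. For the dose contrast, array weights gave 9 calls (2 higher, 7 lower), and single arrays left out gave 0 to 2 (0 to 0 higher, 0 to 2 lower). For the time contrast, array weights gave 641 calls (240 higher, 401 lower), 1 probe set per gene gave 81 higher, and single arrays left out gave 123 to 475 (55 to 163 higher, 64 to 312 lower). That count was 129 without EMD replicate 3, 151 without EMD replicate 1, 152 without DMSO replicate 3 and 194 without DMSO replicate 2 of 24 h, and 152 without EMD replicate 3 of 72 h. Acsl5 changed sign, to -0.10 with the mean of all its probe sets. The cause of these shifts was not tested.

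Same-numbered arrays of EMD and DMSO at 24 h had correlations of 0.52, 0.35 and 0.0058 between their deviations from the group means, so the numbers were not taken to pair these samples. Over all groups of a time, 16 of 18 same-numbered pairs were over 0.1, with a median of 0.37, a hint of shared cells that the labels do not settle. The median for different numbers was -0.22. It is not separate evidence, since deviations within a group sum to 0 and so push these correlations below 0. With the replicate block, 2348 probe sets were called at 24 h, 1659 of them shared, with 958 lower. Of 263 genes followed, 8 gained a call and 0 lost one: Hsd17b7 (adjusted p = 0.00028), Nr1i3 (0.0039), Aqp3 (0.0062), Bdh1 (0.015), Slc10a1 (0.025), Tgfb2 (0.025), Nqo1 (0.036) and Hamp (0.043). The block gave 3 calls for dose, all 3 lower, and 924 for time, with 321 higher and 603 lower.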
